A study of Homo sapiens with 4 samples.

Results

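TYRO3, AXL and MERTK are the TAM family of receptor tyrosine kinases, and GAS6 is the secreted ligand that all of them bind. These 4 genes were chosen by name, and all 4 have a row among the 19626 genes of the deposited tables. RNA-seq was performed on the established ovarian cancer line ES-2, labelled a clear cell carcinoma, whose cells carry an endogenous YAP1-MAML2 fusion. Cells received lentivirus (pLKO.1) with a non-targeting shRNA (shCtl, 2 libraries) or with shM2-3, an shRNA against a MAML2 sequence that the fusion also carries (2 libraries). All cells were infected for 8 h on consecutive days, and RNA was taken 96 h after the first infection per the labels, whereas the study's methods give a shorter transduction. The replicates of each group are labelled as biological replicates. The model is 1 cell line and 1 targeting shRNA, so an effect of shM2-3 and an effect of the loss of its target cannot be told apart here.

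A TAM receptor has an ectodomain with immunoglobulin-like and fibronectin repeats and an intracellular kinase. GAS6 binds phosphatidylserine on dying cells through a Gla domain, which works only after vitamin K-dependent carboxylation, and binds the receptor through its other end. AXL binds GAS6 most tightly of the family, whereas the related ligand PROS1 (protein S) acts on TYRO3 and MERTK. The receptors are known for clearance of dying cells, for damping of interferon and cytokine signals, and, in carcinoma lines, for growth and drug tolerance. AXL is also known as a target of YAP1 and its DNA-binding partners, the TEAD factors.

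In hg38 (GENCODE release 44) AXL lies on chromosome 19 from 41219223 to 41261766 (plus strand, 20 exons in the canonical transcript), TYRO3 on chromosome 15 from 41557675 to 41583589 (plus strand, 19 exons), MERTK on chromosome 2 from 111898607 to 112029561 (plus strand, 19 exons) and GAS6 on chromosome 13 from 113820549 to 113864076 (minus strand, 15 exons). The start regions of AXL and GAS6, the members with the larger drops, are printed from RefSeq (GRCh38.p14) as 250 bases before to 50 after the start, 5′ to 3′ on the gene's strand. AXL has a pair of annotated starts. Capitals mark CATTCC, the letters of the TEAD motif MCAT.
AXL, first start, chr19:41218973-41219272, plus strand: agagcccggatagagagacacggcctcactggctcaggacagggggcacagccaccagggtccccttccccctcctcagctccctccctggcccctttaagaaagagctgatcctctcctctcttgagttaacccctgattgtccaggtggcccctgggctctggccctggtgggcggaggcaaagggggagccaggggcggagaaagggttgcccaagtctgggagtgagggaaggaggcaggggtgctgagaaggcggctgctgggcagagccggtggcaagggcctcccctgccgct
AXL, second start, chr19:41226505-41226804, plus strand: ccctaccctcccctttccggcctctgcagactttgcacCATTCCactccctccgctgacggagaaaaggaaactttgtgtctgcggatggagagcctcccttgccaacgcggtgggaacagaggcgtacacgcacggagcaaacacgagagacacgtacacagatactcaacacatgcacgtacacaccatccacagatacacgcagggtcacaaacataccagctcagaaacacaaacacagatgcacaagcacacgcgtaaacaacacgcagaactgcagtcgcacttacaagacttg
GAS6, chr13:113864027-113864326, minus strand: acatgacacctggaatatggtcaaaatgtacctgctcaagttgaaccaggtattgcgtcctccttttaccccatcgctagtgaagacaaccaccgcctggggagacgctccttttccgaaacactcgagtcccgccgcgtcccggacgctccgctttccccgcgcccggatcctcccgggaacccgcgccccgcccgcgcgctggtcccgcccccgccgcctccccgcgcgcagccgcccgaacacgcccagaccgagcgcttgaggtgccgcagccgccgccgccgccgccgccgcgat
Both strands were searched. The only CATTCC among the windows of the 4 members and PROS1 was in the second AXL window, with its first base at -212 from the start, and 14.0% of all 35116 promoter windows hold these letters. TGAGTCA, the letters of the AP-1 motif, was in none of these windows and in 4.9% of all windows. GC content was 66.0% and 53.7% in the AXL windows and 69.0% in the GAS6 window. The 3′ untranslated regions of the canonical transcripts of AXL, TYRO3, MERTK, GAS6 and PROS1 held no seed match of shM2-3 (TTAGCAA), which occurs in 12.2% of those of 11116 tested genes. No match says only that these letters are not in the searched stretch.

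Values are RPKM, read counts scaled by transcript length and library size, so levels of different genes can be set side by side. Fold changes are log2 differences, shM2-3 minus shCtl, from estimated read counts. Their median over all tested genes was -0.004, against -0.068 for differences of log2(RPKM + 0.1). Percents remaining by RPKM therefore lie slightly lower than the fitted fold changes give. The test covered the 12157 genes that exceeded an RPKM of 1 in any library. A gene passed the test at an adjusted p of 0.05 or less, and was called when it also changed by 2-fold or more, the rule of the study. Called genes were 8.93% of those tested in the lower direction and 9.24% in the higher one, and 36.4% passed on adjusted p alone as lower and 36.3% as higher. Of the 4 members, 2 were called lower, AXL and GAS6. TYRO3 passed on adjusted p alone as lower and MERTK as higher. The libraries held 20051083 to 23978660 counts, and the biological coefficient of variation was 0.0485. MAML2, the targeted gene, had an RPKM of 8.61 and 8.26 in shCtl and 3.107 and 2.998 in shM2-3 (36.2% remaining), and its reads include the MAML2 part of the fusion.

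AXL had an RPKM of 166.2 and 168.9 in the shCtl libraries and 29.85 and 30.21 in the shM2-3 libraries, from 18988, 19625, 4170 and 3821 counts. The groups were far apart and the replicates nearly equal. The mean went from 167.6 ± 1.92 to 30.03 ± 0.254 (SD, n = 2 each), so that 17.9% remained. AXL fell by 2.41 on the log2 scale (standard error 0.0398, 95% interval -2.50 to -2.33, 5.33-fold, edgeR quasi-likelihood test, Benjamini-Hochberg adjusted p = 1.1e-14). Only 1.28% of tested genes had a lower log2 fold change. An unnamed long non-coding RNA lies within AXL on the other strand and has no row in the tables, and the libraries do not keep strand.

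GAS6 had an RPKM of 24.9 and 24.2 in shCtl and 9.85 and 10.9 in shM2-3, from 1462, 1443, 708 and 710 counts. Both shM2-3 libraries were below both shCtl libraries, and the mean went from 24.5 ± 0.512 to 10.4 ± 0.755 (SD, n = 2), with 42.4% remaining. GAS6 fell by 1.17 on the log2 scale (standard error 0.072, 95% interval -1.33 to -1.02, 2.26-fold, edgeR quasi-likelihood test, Benjamini-Hochberg adjusted p = 5.42e-09). A share of 6.84% of tested genes had a lower log2 fold change. GAS6-AS1, an antisense RNA that overlaps GAS6, was at 6 and 2 counts in the control libraries and at 0 and 1 after shM2-3, and reads of this pair cannot be told apart by strand.

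TYRO3 was expressed at a far lower level than AXL. Its RPKM was 5.23 and 5.57 in shCtl and 3.32 and 3.47 in shM2-3, from 1024, 1108, 795 and 752 counts, without overlap of the groups. The mean was 5.40 ± 0.238 against 3.39 ± 0.105 (SD, n = 2), or 62.9% remaining. TYRO3 fell by 0.60 on the log2 scale (standard error 0.0713, 95% interval -0.76 to -0.45, 1.52-fold, edgeR quasi-likelihood test, Benjamini-Hochberg adjusted p = 4.36e-06), which is under the 2-fold limit. The drop of AXL was larger than that of TYRO3, and their 95% intervals did not overlap. TYRO3P, a pseudogene copy of TYRO3, was at 0 and 3 counts in the control libraries and at 5 and 0 after shM2-3.

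MERTK had the lowest level of the receptors, with an RPKM of 0.748 and 0.933 in shCtl and 1.75 and 1.24 in shM2-3. These rest on 67, 85, 192 and 122 counts, and the shM2-3 replicates differed more from each other than the shCtl replicates did. MERTK passed the RPKM limit only through the shM2-3 libraries, where it was higher, so it could enter the test only by its higher group. Its log2 fold change was 0.90 (standard error 0.233, 95% interval 0.39 to 1.40, 1.86-fold, edgeR quasi-likelihood test, Benjamini-Hochberg adjusted p = 0.00356), the opposite direction to the other members. Without shM2-3 replicate 1 it was 0.62 (edgeR quasi-likelihood test, Benjamini-Hochberg adjusted p = 0.0735), so the call on adjusted p rests on that library. Without shM2-3 replicate 2 it was 1.12, past the 2-fold limit (edgeR quasi-likelihood test, Benjamini-Hochberg adjusted p = 0.00215). Without shCtl replicate 2 it was 1.06 (edgeR quasi-likelihood test, Benjamini-Hochberg adjusted p = 0.000593).

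**Figure D1:**
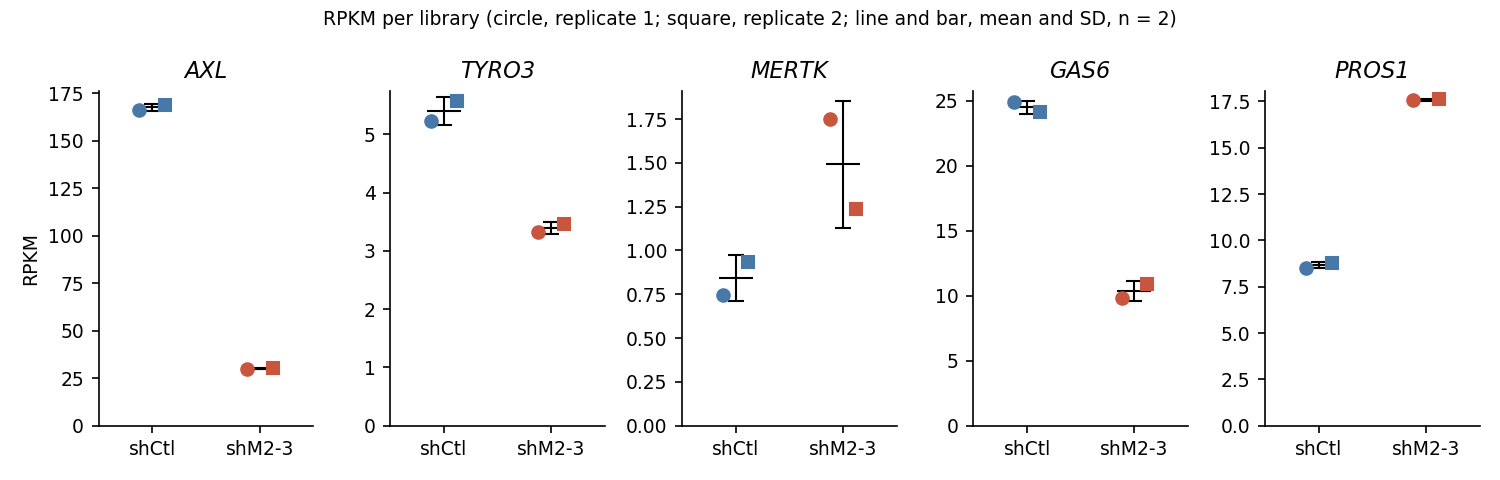
RPKM (vertical axes, from 0) of the 4 members and PROS1 in each library, with circles for replicate 1, squares for replicate 2 and the mean ± SD of 2 libraries beside them. AXL goes from 167.6 to 30.03 and GAS6 from 24.5 to 10.4, whereas MERTK and PROS1 are higher in shM2-3.

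**Figure D2:**
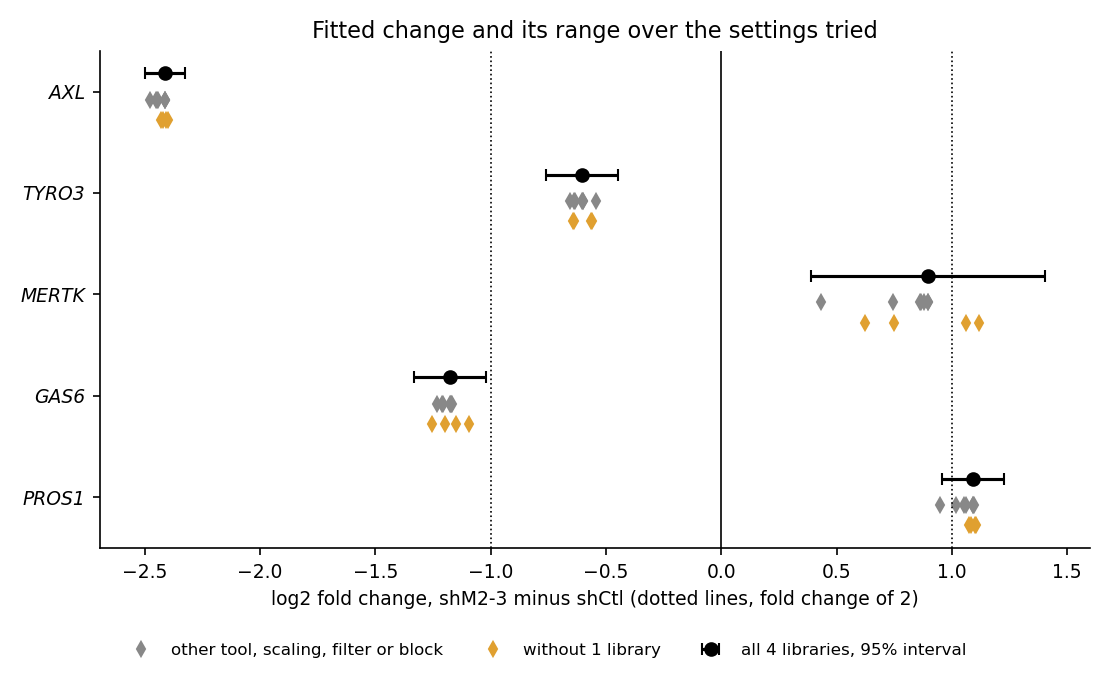
Log2 fold change, shM2-3 minus shCtl, of the members and PROS1, with the 95% interval from all 4 libraries (black), other tools, scalings, filters and the block (grey), and fits without 1 library (orange). AXL and GAS6 lie beyond the dotted line of a 2-fold drop in every fit shown, and MERTK spans 0.43 to 1.12.

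The order of the receptors by RPKM, AXL above TYRO3 above MERTK, was the same in all 4 libraries, with each neighbour clearly apart. The makeup differed between groups. AXL was 96.5% and 96.3% of the summed receptor RPKM in shCtl and 85.5% and 86.5% in shM2-3, a mean of 96.4% ± 0.165 against 86.0% ± 0.739 (SD, n = 2). TYRO3 was 3.04% and 3.17% of that sum in shCtl and 9.50% and 9.93% in shM2-3. MERTK was 0.434% and 0.532% in shCtl and 5.01% and 3.54% in shM2-3. The groups did not overlap for any of these shares. The shares of a library are parts of a fixed whole, so they are not separate results. The TYRO3 share was higher in shM2-3 although mean TYRO3 RPKM was lower there (5.40 in shCtl, 3.39 in shM2-3). With 2 libraries against 2, the exact two-sided permutation test gives p = 0.333 for the AXL share, the smallest value this design allows. The summed receptor RPKM was 172 and 175 in shCtl and 34.9 in both shM2-3 libraries, so AXL remained the main TAM transcript of a much smaller pool. In bulk RNA, fewer cells that express a gene and less RNA per cell cannot be told apart.

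PROS1, the other classical TAM ligand, moved opposite to GAS6. Its RPKM was 8.53 and 8.76 in shCtl and 17.6 in both shM2-3 libraries. PROS1 rose by 1.09 on the log2 scale (standard error 0.0621, 95% interval 0.96 to 1.23, 2.13-fold, edgeR quasi-likelihood test, Benjamini-Hochberg adjusted p = 2.47e-09), though with limma on log2(RPKM + 1) the value was 0.95, under the 2-fold limit. The RPKM ratio of GAS6 to PROS1 was 2.92 and 2.76 in shCtl and 0.561 and 0.620 in shM2-3, so PROS1 was the higher of the pair after shM2-3 (exact two-sided permutation test p = 0.333, the smallest possible). LGALS3 (galectin-3), described as a MERTK ligand, had an RPKM of 28.6 and 29.6 in shCtl and 48.5 and 50.5 in shM2-3. LGALS3 passed on adjusted p as higher, at 0.83 on the log2 scale (standard error 0.0517). TUB and TULP1, the remaining ligands listed, had at most 2 counts in shCtl and were not tested.

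**Figure D3:**
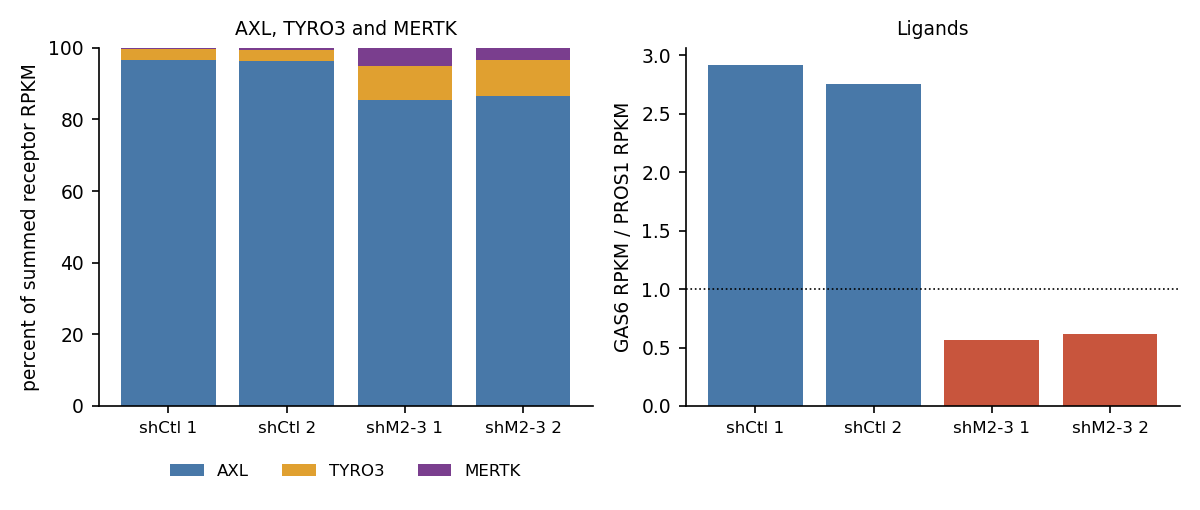
Left, the percent of the summed RPKM of AXL, TYRO3 and MERTK that each receptor gives in each library. Right, the RPKM ratio of GAS6 to PROS1 in each library, with a dotted line at 1, above which both shCtl libraries lie (2.92 and 2.76) and below which both shM2-3 libraries lie (0.561 and 0.620).

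Set against other receptor tyrosine kinases, AXL was the highest of the 53 listed ones present in the tables in shCtl and was the sixth in shM2-3. In shCtl, EPHA2 (66.4), TIE1 (66.3), MET (59.2) and FGFR1 (32.8) followed AXL in mean RPKM. In shM2-3, TIE1 (57.9), DDR1 (54.5), EPHA2 (41.2), MET (34.5) and RYK (34.1) were above AXL (30.03). TYRO3 went from rank 12 to rank 18. AXL gave 32.1% and 32.3% of the summed RPKM of these kinases in shCtl and 7.05% and 7.17% in shM2-3, while the sum of the others was 353 ± 2.18 in shCtl and 392 ± 1.41 in shM2-3 (SD, n = 2).

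Of the 26 tested kinases, 6 (MERTK among them) exceeded an RPKM of 1 only in shM2-3, where they were high, and FGFR4 only in shCtl, where it was high. These could enter the test only by their higher group, so the counts that follow support nothing about the family. Without the members, 23 were tested, 2 called lower (KIT, the stem cell factor receptor, and FGFR4) and 8 higher, of which 5 entered through shM2-3 alone. Of all tested genes, 8.93% were called lower and 9.24% higher. AXL had the second lowest log2 fold change among the tested kinases, after FGFR4 (-3.01, standard error 0.352), whose RPKM was 1.31 and 1.34 in shCtl and 0.176 and 0.134 in shM2-3. KIT fell by 1.35 on the log2 scale (standard error 0.167), and by 0.98, under the 2-fold limit, with limma on log2(RPKM + 1). DDR1, a collagen receptor, rose by 3.02 (standard error 0.0535), from an RPKM of 7.03 ± 0.0824 to 54.5 ± 3.05 (SD, n = 2). PDGFRA rose by 1.79 (standard error 0.0451). MET and EPHA2 passed on adjusted p as lower, at -0.71 (standard error 0.0393) and -0.62 (standard error 0.0418). TIE1 was at -0.13 (standard error 0.0405).

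**Figure D4:**
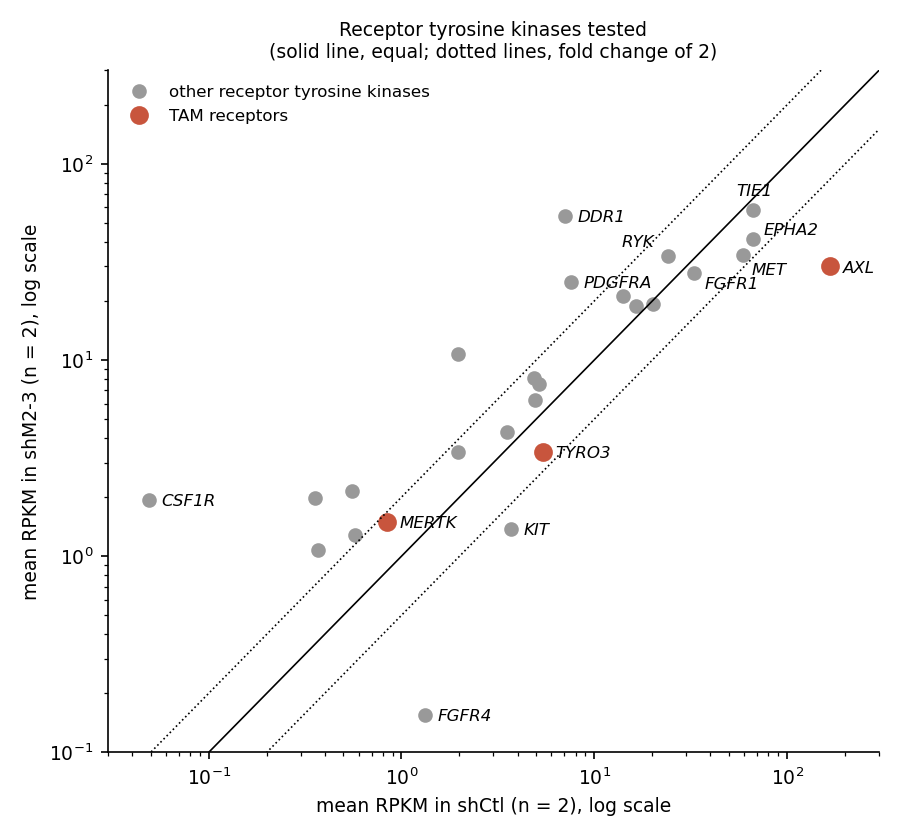
Mean RPKM of the 26 tested receptor tyrosine kinases in shCtl and shM2-3, on log axes. AXL is the highest point in shCtl at 167.6 and lies well below the line of equal levels, at 30.03 in shM2-3, and DDR1, at 7.03 and 54.5, lies above it.

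GAS6 needs carboxylation and propeptide cleavage before it can work. Of 9 genes of the vitamin K cycle and propeptide processing, 7 were tested. Of these, 1 was called lower and 1 higher, beside 8.93% and 9.24% of all tested genes. On adjusted p, 3 passed as lower and 2 as higher (median 0.05), beside 36.4% and 36.3% of all tested genes. AIFM2, a vitamin K reductase, fell by 1.16 (standard error 0.133), from an RPKM of 4.81 and 4.42 in shCtl to 1.88 and 2.08 in shM2-3, and with limma on log2(RPKM + 1) its value was -0.92, under the 2-fold limit. GGCX, the carboxylase itself, passed on adjusted p as lower at -0.51 (standard error 0.0517), and VKORC1, which recycles vitamin K, at -0.69 (standard error 0.0434). FURIN, which cleaves propeptides, rose by 1.42 (standard error 0.0451), from 15.7 and 16.3 to 41.5 and 40.6 RPKM. CALU, an inhibitor of the carboxylase, passed on adjusted p as higher at 0.82 (standard error 0.0352). Of 13 other Gla proteins, 9 are in the tables and 3 were tested. PROS1, also listed among the ligands above, and BGLAP were called higher, beside 9.24% of all tested genes. BGLAP exceeded an RPKM of 1 only in shM2-3, so it could enter the test only by its higher group. PRRG1 was at 0.03 (standard error 0.11), which changed sign between settings. BGLAP lies within a read-through locus and was at 0 counts in both shCtl libraries against 84 and 85 in shM2-3, so its value is uncertain.

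Shedding releases TAM ectodomains, mainly by ADAM10 and ADAM17. All 13 genes of shedding and intramembrane cleavage passed on adjusted p as higher and 6 were called higher (median 0.76). Of all tested genes, 36.3% passed as higher and 9.24% were called higher. ADAM10 was at 14.0 and 14.2 RPKM in shCtl and 22.5 and 22.6 in shM2-3, a log2 fold change of 0.75 (standard error 0.0408). ADAM17 was at 0.65 (standard error 0.0681). RHBDF1 (1.07) and RHBDF2 (1.09), the iRhoms that carry ADAM17 to the surface, and FRMD8 (1.10), which stabilises them, were called, though with limma on log2(RPKM + 1) they were at 0.81, 0.92 and 0.97, under the 2-fold limit, as was RHBDF1 at 0.98 on log2(RPKM + 0.1). The metalloprotease inhibitors TIMP1 and TIMP3 were also called higher. TIMP1 rose by 2.11 (standard error 0.0456) from 200.4 and 216.0 to 842.8 and 868.8 RPKM. TIMP3 rose by 2.36 (standard error 0.0361) from 71.0 and 73.4 to 352.0 and 353.7 RPKM. APH1B had the lowest value, 0.15 (edgeR quasi-likelihood test, Benjamini-Hochberg adjusted p = 0.035). It did not pass on adjusted p with DESeq2, library totals, no filter or either limma fit, so the count of 13 holds for the main fit.

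Of 28 TAM signal adaptors and kinases, 25 were tested, and only NCK2 was called (median 0.30). On adjusted p, 17 passed as higher and 1 as lower, beside 36.3% and 36.4% of all tested genes. The share of all tested genes called higher was 9.24%. NCK2, an adaptor for tyrosine-phosphorylated receptors, was at 1.01 (standard error 0.0629), and was under the 2-fold limit at 6 alternative settings. BCAR1 (0.97) and TNS2 (0.86), focal adhesion proteins, came next. RANBP9, a scaffold protein, had the lowest value, -0.32 (standard error 0.0592).

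TAM receptors damp innate signals together with the type I interferon receptor through SOCS proteins. Of 10 genes for this feedback, 2 were called higher, beside 9.24% of all tested genes. On adjusted p, 5 passed as higher and 2 as lower, beside 36.3% and 36.4% of all tested genes. SOCS1, an inhibitor of JAK kinases, rose by 3.96 (standard error 0.327), from an RPKM of 0.211 and 0.656 in shCtl to 6.77 and 6.28 in shM2-3, and could enter the test only through shM2-3. IFNAR1, a subunit of the type I interferon receptor, rose by 1.11 (standard error 0.067), and by 0.90, under the 2-fold limit, with limma on log2(RPKM + 1). TWIST1, a repressor of cytokine transcription downstream of AXL, passed on adjusted p as lower at -0.74 (standard error 0.082), as did SOCS3 at -0.68 (standard error 0.0647).

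Of 19 genes of phosphatidylserine exposure and engulfment, 17 are in the tables and 11 were tested. ITGAV, MFGE8 and LRP1 were called higher, beside 9.24% of all tested genes. On adjusted p, 7 passed as higher and 1 as lower (median 0.88), beside 36.3% and 36.4% of all tested genes. MFGE8, another bridge from phosphatidylserine to the cell, rose by 1.61 (standard error 0.0487), from 17.6 and 17.1 to 50.5 and 50.8 RPKM. ITGAV, a subunit of its integrin receptors, rose by 1.98 (standard error 0.0447), from 16.8 and 15.9 to 62.5 and 60.2 RPKM. LRP1, an engulfment receptor, rose by 1.10 (standard error 0.0398). ITGB5, another integrin subunit of that kind, and TMEM30A, a partner of the flippases that keep phosphatidylserine inside, passed on adjusted p at 0.88 and 0.95. ANO6, a scramblase, was at -0.02 (95% interval -0.12 to 0.07). CALR had the lowest value, -0.35. Over all of these lists and the kinases, 93 genes other than the members were tested. Of these, 3 were called lower and 23 higher, beside 8.93% and 9.24% of all tested genes. Of the 23, 7 exceeded an RPKM of 1 only in shM2-3, and of the 3, 1 (FGFR4) only in shCtl.

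**Figure D5:**
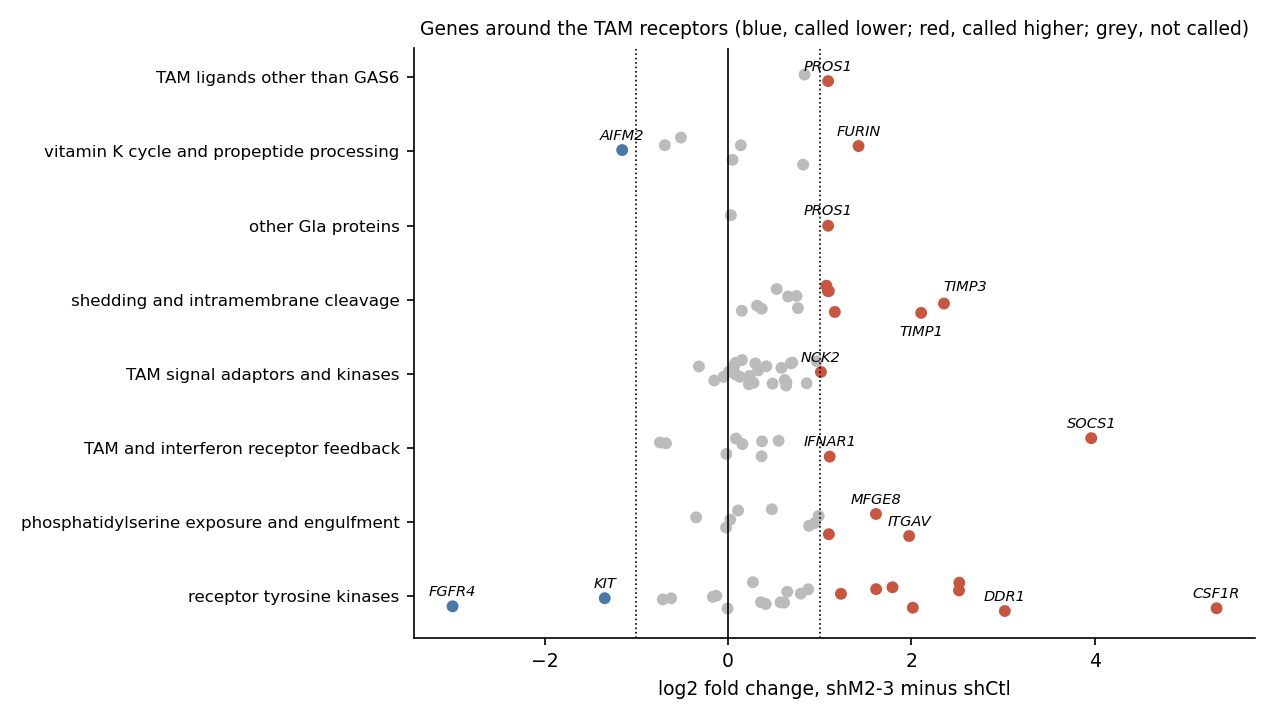
Log2 fold change, shM2-3 minus shCtl, of each tested gene of the lists. Blue points were called lower and red points higher, dotted lines mark a 2-fold change, and BGLAP and the 3 TAM receptors are left out. The 13 genes of shedding and intramembrane cleavage all lie above 0, and the adaptors lie between -0.32 and 1.01.

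Markers of other cells were read beside these values. Of 10 leukocyte markers, 6 are in the tables, and they summed to an RPKM of 1.14 and 0.603 in shCtl and 5.14 and 3.02 in shM2-3. AIF1, TYROBP, SPI1 and ITGAM, which are myeloid markers, have no row. The lymphocyte markers CD3E and CD79A were at an RPKM of 0.0777 or less in each library. PTPRC, the pan-leukocyte marker, was at an RPKM of 0.0173 or less in each library, and 2 of the 6, LYZ and CSF1R, exceeded an RPKM of 1 in any library. LYZ, lysozyme, was at 0.945 and 0.423 in shCtl and 2.34 and 0.129 in shM2-3. It differed by slightly more between the shM2-3 libraries than their sums did. CD14, a monocyte marker, was at 0.0777 and 0.102 in shCtl and 0.890 and 0.866 in shM2-3. CSF1R, a macrophage receptor, was at 0.0200 and 0.0785 in shCtl and 1.88 and 2.01 in shM2-3. All 7 fibroblast markers are in the tables and summed to 12.8 and 12.7 in shCtl and 35.0 and 34.8 in shM2-3, with 2 over an RPKM of 1, PDGFRA and FAP. The matrix genes DCN, LUM, COL1A2, COL3A1 and POSTN were at 0.413 or less in each library. MERTK is known from macrophages, and the part of such cells in its value was not tested. Of the 8 markers of ovarian clear cell carcinoma, NAPSA, PAX8 and EPCAM were at or near 0, so the labelled tumour type is not seen in these, whereas KRT7, KRT8 and KRT18 were expressed. The sum of the 8 was 642.1 and 641.2 in shCtl and 316.0 and 318.8 in shM2-3, so AXL and GAS6 were lower in the same libraries as the keratins. That relation was not tested.

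The genes most like each member were sought by Euclidean distance in log2(RPKM + 0.1) over the 4 libraries, which all comparisons share. For AXL they were HILPDA (0.285), FASN (0.303) and ECI2 (0.306), genes of lipid storage, synthesis and breakdown, with log2 fold changes of -2.37, -2.15 and -2.13. For GAS6 they were HMMR (0.094), CENPH (0.097) and MYO1E (0.114), with log2 fold changes of -1.22, -1.24 and -1.09. For TYRO3 they were PDE4DIP (0.074), ZNF550 (0.131) and NAF1 (0.138), and for MERTK TLCD4-RWDD3 (0.160), FIRRE (0.262) and RMDN2 (0.274). The distance reads level and difference together, so it names genes of a similar level.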

How the data were processed

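RNA of ES-2 cells was sequenced as non-strand-specific paired ends of 150 bases, with 2 shCtl and 2 shM2-3 libraries grouped by their labels. Per the labels' processing notes and the study's methods, the authors aligned reads to hg38 with HISAT2 2.0.4, left out reads that were ambiguous or mapped with a quality below 10, and estimated RefSeq gene levels with Partek 7.18. The deposited values are estimated counts without normalization, of which 42.4% to 48.6% per library are whole. The deposited RPKM values divide them by gene length and library size.

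After rounding, the counts entered the quasi-likelihood test of edgeR 4.0.16 (R 4.3.3) with TMM scaling and no block. Benjamini-Hochberg adjustment ran over the 12157 genes that exceeded an RPKM of 1 in any library. The standard error is the log2 fold change divided by the square root of F. p-values rest on the spread between 2 libraries per group, moderated with that of all tested genes (12.02 total degrees of freedom). Replicates differed by more than counting noise (chi-square over degrees of freedom 3.51 in shCtl and 4.09 in shM2-3). Alternatives were DESeq2 1.42.0, limma 3.58.1 on log2(RPKM + 0.1) and log2(RPKM + 1), library totals, other filters, a 1.5-fold limit, the replicate number as a block, and the removal of single libraries.

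The members and gene lists were chosen with earlier results of these data known. Named genes are the members, PROS1, the lowest, highest and, where 5 or fewer, called genes of each list, the 5 most abundant kinases per group, the 3 nearest genes to each member, overlapping genes and MAML2. GGCX, VKORC1, CALU, ADAM10, ADAM17, TIMP1, RHBDF1, RHBDF2, FRMD8, SOCS3, TMEM30A, ANO6, ITGB5, KIT, PDGFRA, CSF1R, BCAR1, TNS2, TYRO3P and the cell markers were named for their role after values were seen. Some genes of the lists are counted but not reported here by name.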

Additional observations from a re-analysis of the deposited data

How the results depend on the processing

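AXL, GAS6 and TYRO3 kept their direction and their adjusted p of 0.05 or less at all 12 alternatives. Their log2 fold changes, without left-out libraries, ranged from -2.48 to -2.41 for AXL, from -1.23 to -1.17 for GAS6 and from -0.65 to -0.54 for TYRO3. MERTK kept its direction, from 0.43 to 0.90, and from 0.62 to 1.12 when 1 library was left out. At a 1.5-fold limit TYRO3 (-0.60) and MERTK (0.90) were called as well. By counts in place of RPKM, the AXL share fell by 13.3 percentage points. PRRG1 reversed to -0.005 with library totals, -0.037 and -0.027 with limma, -0.001 without a filter, and ranged from -0.041 to 0.098 with 1 library left out; it passed no test, and the cause was not tested.

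At a 1.5-fold limit, 2302 genes were called lower and 2296 higher, of the pathway genes 8 lower and 42 higher. With limma on log2(RPKM + 1), 596 genes were called higher, of the pathway genes 1 lower and 14 higher. Without a filter, 5 pathway genes were called lower. These settings differ from the main fit in the limit, in the tool, scaling and pseudocount, or in the genes tested. The part of each was not tested.

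The replicate block gave -2.41 for AXL, -1.17 for GAS6, -0.60 for TYRO3 and 0.88 for MERTK, with 1079 genes lower and 1123 higher, and changed no call of a member. Deviations of same-numbered libraries correlated at -0.007, so no shared deviation was seen. Whether they share a preparation was not tested. With 2 libraries per group each SD rests on a pair of values, and MERTK, with 67 to 192 counts, has the widest error of the members.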
